A study of Mus musculus with 3 samples.

Results

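Intronic insertions and deletions (indels) of 2, 3 or 4 bases were taken from the indel lists of 3 exome capture libraries of the mouse bladder cancer line MB49. The members were all entries on chromosomes 1 to 19 annotated as intronic whose inserted or deleted sequence was 2 to 4 bases long, matched between libraries on chromosome, start, reference and alternative allele. The union held 4203 such indels, 18% of the 23347 indels listed in any library and 46.4% of the 9059 autosomal intronic ones. The parental library listed 2005 of them, the Y positive library 1868 and the Y negative library 2074. Just outside the length limits lay 3780 intronic indels of 1 base and 145 of 5 bases.

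MB49 arose from bladder cells of a male mouse. The 3 groups were the parental line, a derived line with the genotype label Y positive and a derived line with the label Y NEGATIVE, each grown in the same serum-containing medium and each represented by 1 library of genomic DNA. How the derived lines were obtained, and whether either is a clone, is not given in the sources used here. Groups follow the genotype labels; the Y positive library also carries the description MBN and the Y negative one MBP, which the labels do not explain. If their last letters abbreviate the Y status, they run against the genotype labels, and the names of the derived libraries would be exchanged throughout; no value used here settles this. With 1 library a group, no value has a replicate check, and differences between libraries cannot be assigned to the Y chromosome.

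Introns of mammalian genes hold many short tandem repeats, runs in which a unit of 1 to 4 or more bases is repeated head to tail. Such runs are known to gain or lose whole units when a polymerase slips, in dividing cells and also in PCR, and the dinucleotide run of AC units (GT on the other strand) is the commonest kind in rodent genomes. Deletions and insertions of 2 to 4 bases in introns are thus often changes in the number of units. The bases around each indel were not used here because no genome of the files' build was at hand, so the unit below is that of the inserted or deleted bases themselves. It is the smallest unit whose repetition gives those bases, counted together with its shifted forms and its reverse complement: AC, CA, GT and TG are all the class AC/GT.

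The sequences below show what such entries look like. Coordinates are those of the files (mouse mm9, see the processing), letters are those of the plus strand as listed, lower case is the reference base or bases before the change, and capitals are the inserted or deleted bases. The first 6 are the deepest members, 2 of each length, that were homozygous in every library. The next is a heterozygous AAAG insertion listed in every library. The last 3 are AC/GT deletions in the list of 1 library alone: parental, Y positive and Y negative in that order. Each is the deepest of those with an allele fraction (share of reads with the indel) of at least 0.25.

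chr2:83635570-83635570 insertion: gTT
chr8:54601283-54601284 deletion: cCT
chr2:80187477-80187479 deletion: aTTT
chr9:123347226-123347228 deletion: aAAC
chr3:90290713-90290716 deletion: aGTTT
chr9:123089096-123089096 insertion: cACTT
chr3:105964063-105964063 insertion: cAAAG
chr7:19871941-19871942 deletion: gGT
chr19:8948514-8948515 deletion: cTG
chr19:46774130-46774131 deletion: gGT

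Depth was low for most entries. The parental library had a median depth of 9 reads, the Y positive library 12 and the Y negative library 8, and 602, 660 and 589 entries reached 20 reads. Entries of 2 bases were read more deeply (medians 12, 14 and 10 reads) than those of 3 bases (5, 7 and 4) or 4 bases (4, 6 and 4). Results below therefore use entries of 20 reads or more: for the union, in 1 or more libraries (1042 indels), and for genotypes and allele fractions, in the library itself. At that depth the medians were close, between 35 and 48 reads over lengths and libraries.

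Deletions of 2 bases made up most of the set. Of the 1042 indels, 747 were 2-base deletions and 78 were 2-base insertions. There were 73 deletions and 25 insertions of 3 bases, and 67 deletions and 52 insertions of 4 bases. Deletions were 90.5% of 2-base indels (exact 95% interval 88.3 to 92.4), 74.5% of 3-base indels (64.7 to 82.8) and 56.3% of 4-base indels (46.9 to 65.4). All 3 differences passed two-sided Fisher exact tests on counts of indels (2 against 3 bases, adjusted p = 2.80e-05; 2 against 4, adjusted p = 7.41e-18; 3 against 4, adjusted p = 0.00823). These p-values and the others on shares were adjusted by the Benjamini-Hochberg method over 1 family of 21 tests. The order was the same in each library over all depths: deletions were 83.5%, 85.5% and 82.6% of 2-base entries in parental, Y positive and Y negative, 72.4%, 68.3% and 70.4% of 3-base entries, and 65.2%, 61.0% and 63.6% of 4-base entries.

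**Figure D1:**
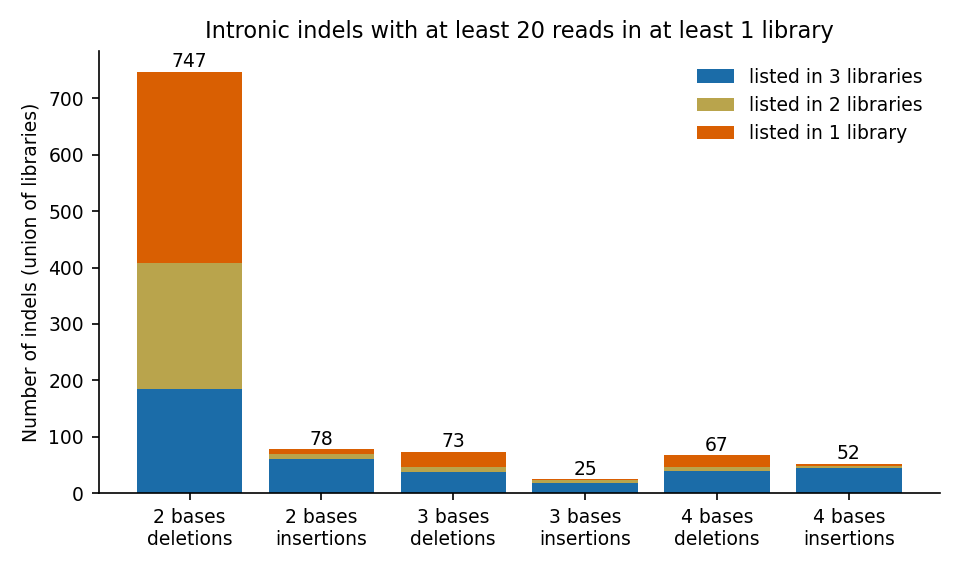
Number of intronic indels read 20 or more times in 1 or more libraries, by length and direction; colours give how many of the 3 libraries list the indel. The 747 deletions of 2 bases outnumber all other classes, and 339 of them are listed in 1 library alone.

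The unit differed with the length. Among 2-base indels, AC/GT made up 512 of 825 (62.1%, exact 95% interval 58.7 to 65.4), runs of A or T 141, AG/CT 75, runs of C or G 48, AT 40 and CG 9. Both strands contributed alike to the AC/GT deletions: 239 had the letters AC or CA on the plus strand and 244 had GT or TG. Among 3-base indels, runs of A or T were commonest (44 of 98) and runs of C or G next (14), followed by AAC/GTT (11) and AAT/ATT (10). Units of 1 base thus made up 58 of 98 3-base indels (59.2%).

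The 4-base indels were the most varied. AC/GT, here as 2 units, was the commonest class with 22 of 119, followed by AAAC/GTTT with 15 and runs of A or T with 10. Units that need all 4 bases made up 77 of 119 (64.7%). Over all depths the AC/GT class was 1397 of 2802 2-base indels and 257 of 861 4-base indels.

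Direction also varied between units. Of 2-base AC/GT indels 483 were deletions and 29 insertions, and of 2-base C/G indels 46 and 2. Of the 2-base CG indels, by contrast, 5 were deletions and 4 insertions. Among 4-base indels, AAAC/GTTT had 6 deletions and 9 insertions, AAAG/CTTT 3 and 5, and ACAT/ATGT 1 and 4. AGAT/ATCT had 5 and 3, AC/GT 15 and 7, and runs of A or T 9 and 1. Units that need all 4 bases had 38 deletions and 39 insertions together. Over all depths AAAC/GTTT had 27 and 23, AAAG/CTTT 25 and 26, and ACAT/ATGT 11 and 11. Shares by unit are given as counts and were not tested.

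The deposited genotype separated the 2-base indels from the longer ones. Homozygous entries were 12.5% of 447 parental 2-base entries, 11.6% of 499 from Y positive and 11.9% of 437 from Y negative. For 3 bases the shares were 44.8% of 67, 50.7% of 67 and 52.3% of 65, and for 4 bases 61.4% of 88, 58.5% of 94 and 48.3% of 87. The ranges of 2-base and longer entries did not overlap, and each library gave the same order between 2 bases and either longer class. By Fisher exact tests, 2-base entries differed from 3-base entries (adjusted p = 6.95e-09, 2.83e-12 and 2.83e-12 in the order above) and from 4-base entries (adjusted p = 3.29e-20, 1.21e-20 and 8.82e-13). Entries of 3 and 4 bases did not pass the Fisher exact test in any library (adjusted p = 0.0563, 0.357 and 0.743), and their order turned between libraries, with 3-base entries higher in Y negative alone.

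Over all lengths together, insertions were homozygous more often than deletions. The homozygous share was 47.9% of 117 insertions against 17.3% of 485 deletions in parental, 48.3% of 120 against 16.5% of 540 in Y positive, and 39.1% of 110 against 17.7% of 479 in Y negative (Fisher exact tests, adjusted p = 8.69e-11, 2.83e-12 and 6.61e-06). By length, untested, the gap was widest for 2 bases, with 32.7% of 55 insertions against 9.69% of 392 deletions in parental, 35.8% of 53 against 8.74% of 446 in the Y positive library and 25% of 52 against 10.1% of 385 in the Y negative library. For 4 bases insertions were at 63.6%, 65.2% and 50.0% against 59.1%, 52.1% and 46.8% for deletions, over 40 to 48 entries each. For 3 bases they were at 55.6%, 42.9% and 55.6% against 40.8%, 54.3% and 51.1%, over 18 to 21 insertions, so that deletions were higher in Y positive. The 3 libraries list many of the same indels, so these are not 3 independent tests. Among 2-base deletions the AC/GT class was nearly always heterozygous. It was homozygous at 10 of 249 parental entries (4.02%), and at 7 of 275 and 9 of 235 in the Y positive and Y negative libraries, against 28 of 143 (19.6%), 32 of 171 and 30 of 150 for 2-base deletions of other units.

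**Figure D2:**
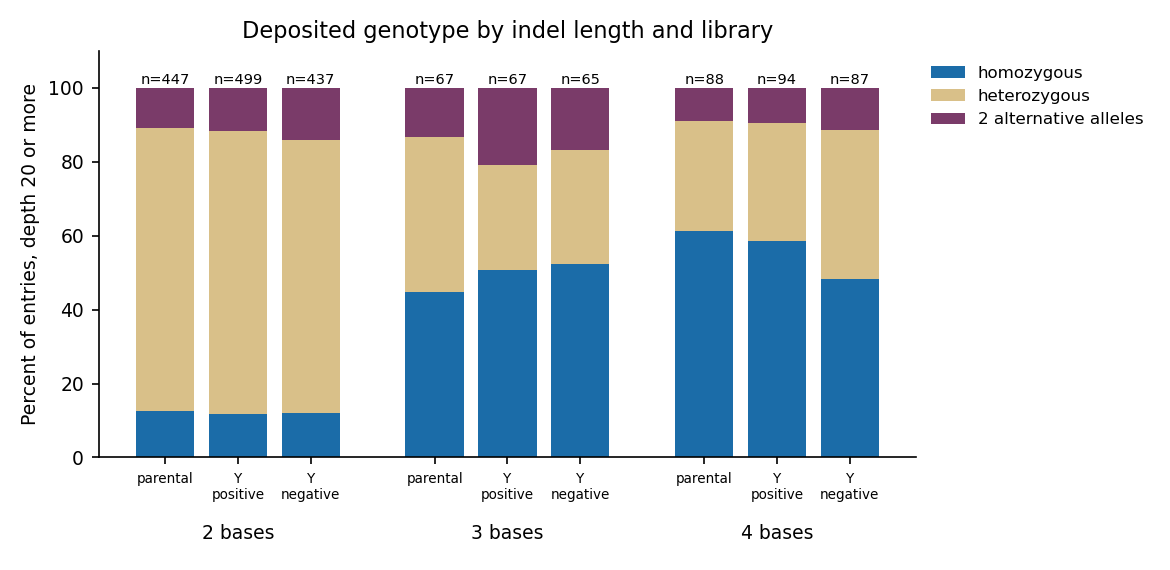
Share of entries with at least 20 reads that were deposited as homozygous, heterozygous or with 2 alternative alleles, by indel length and library; n is the number of entries. The homozygous share is 11.6% to 12.5% for 2 bases and 44.8% to 61.4% for 3 and 4 bases.

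A genotype with 2 alternative alleles means that the reads of 1 place carried 2 different indels, each listed as an entry of its own. Such entries were 66 of 602 in parental (11%, exact 95% interval 8.58 to 13.7), 82 of 660 in Y positive (12.4%, 10.0 to 15.2) and 83 of 589 in Y negative (14.1%, 11.4 to 17.2). The other allele had the same unit at 61, 78 and 82 of them and ran in the same direction at all of them. It was 1 base long at 43, 50 and 47, and 2 to 4 bases long at 22, 30 and 34, in which case both alleles are members. Units of 1 base made up 55, 67 and 65 of these entries. Among 2-base deletions, AC/GT entries held 2 alternative alleles in 1 of 249, 4 of 275 and 4 of 235 cases, against 35 of 143, 44 of 171 and 46 of 150 for other units.

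Of 1007 places with members and at least 20 reads, 182 (18.1%) held indels of more than 1 length, within a library or between libraries, and the share differed between units. Places were taken as the position that the caller's own fields give for the line, with indels of any length of the same unit counted. A unit of 1 base can show every length, while AC/GT can show even lengths alone. Of 59 places with C/G members and that depth, 48 held more than 1 length (81.4%, exact 95% interval 69.1 to 90.3), and of 184 with A/T members 110 did (59.8%, 52.3 to 66.9). Of 518 AC/GT places 19 did (3.67%, 2.22 to 5.67), of 78 AG/CT places 3 and of 41 AT places 1. Among places listed in 2 or more libraries, the libraries differed in the lengths listed at 39 of 58 C/G places, 92 of 170 A/T places and 18 of 299 AC/GT places. An example is chr5:145750759, in transcript ENSMUST00000085681, where parental listed a GT deletion in 14 of 49 reads, Y negative the same deletion in 16 of 42 reads, and Y positive a deletion of GTGTGT in 27 of 54 reads. At chr8:97083914, in ENSMUST00000048653, a GT deletion was carried by 35 of 37 reads in parental and 54 of 57 in Y positive, while in Y negative it was carried by 35 of 53 reads beside a GTGT deletion in 14. Both places were chosen after their values were seen, as examples of nested deletions that differed between libraries. The longest deletion listed at each place is written below, with the GT unit that parental lists as deleted in capitals. The Y negative entry at the chr8 place starts 2 bases on, at 97083916.

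chr5:145750759-145750764: GTgtgt
chr8:97083914-97083917: GTgt

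The allele fraction, the reads with the indel over all reads of the entry, was low for heterozygous 2-base indels. Parental had a median of 0.297 (quartiles 0.240 to 0.40, 342 entries), Y positive one of 0.304 (0.244 to 0.407, 382 entries) and Y negative one of 0.296 (0.236 to 0.375, 323 entries). Below 0.5 lay 87.4%, 85.6% and 90.4% of them. For 3 bases the medians were 0.503, 0.535 and 0.614 over 28, 19 and 20 entries, and for 4 bases 0.382, 0.433 and 0.409 over 26, 30 and 35 entries. As a base of comparison, heterozygous intronic indels of 1 base had medians of 0.450, 0.464 and 0.414 over 920, 900 and 966 entries, and those of 5 or more bases 0.517, 0.517 and 0.481 over 35, 34 and 30 entries. These medians describe the entries and were not tested.

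Direction and unit went with the allele fraction. Heterozygous 2-base insertions had medians of 0.411, 0.419 and 0.415 over 24, 23 and 27 entries, against 0.286, 0.30 and 0.289 for 2-base deletions over 318, 359 and 296. The AC/GT deletions had medians of 0.278, 0.289 and 0.273 over 238, 264 and 222 entries, and 96.6%, 95.5% and 98.2% of them lay below 0.5. Their lowest values were 0.168, 0.161 and 0.156. AG/CT deletions (0.289, 0.261 and 0.276) and AT deletions (0.276, 0.286 and 0.265) lay close to them, over 16 to 27 entries each. Deletions of AA or TT stood apart, with medians of 0.568, 0.592 and 0.526 over 28, 36 and 27 entries. Deletions of CC or GG had 0.750, 0.765 and 0.479 over 9, 7 and 4 entries.

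**Figure D3:**
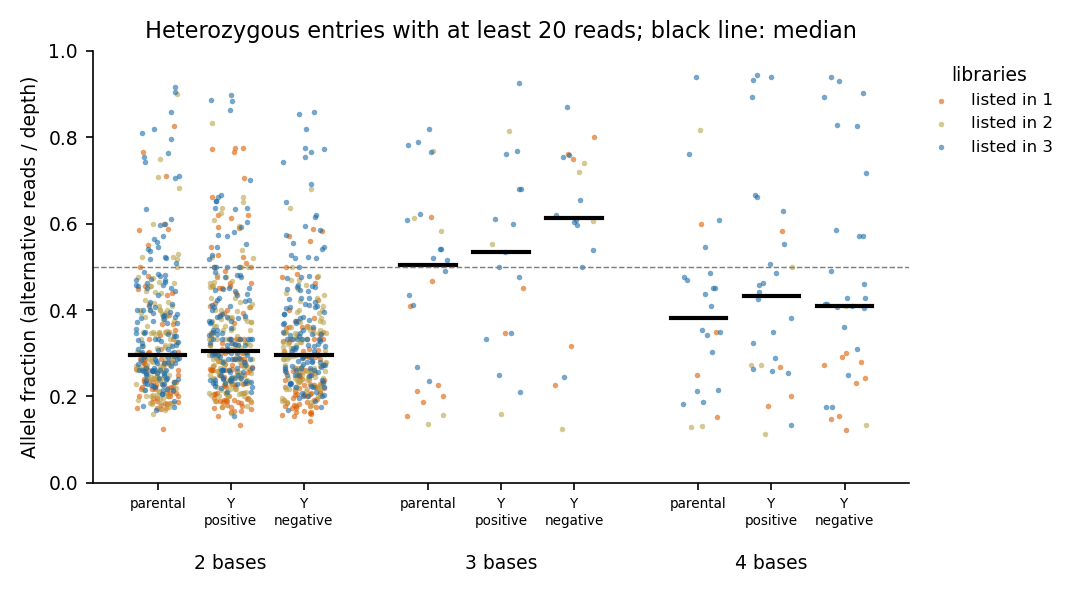
Allele fraction of each heterozygous entry with at least 20 reads, by indel length and library, coloured by the number of libraries that list the indel; black lines are medians and the dashed line is 0.5. The 2-base entries gather around medians of 0.296 to 0.304, and the 3-base medians are 0.503 to 0.614.

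Of the deepest heterozygous members, the TT insertion at chr4:146881778 (ENSMUST00000063704) had the widest range of read shares: it was carried by 78 of 252 reads in parental (31.0%, exact 95% interval 25.3 to 37.1), 77 of 215 in the Y positive library (35.8%, 29.4 to 42.6) and 95 of 229 in the Y negative library (41.5%, 35.0 to 48.2). The AAAG insertion at chr3:105964063 (ENSMUST00000063062) was carried by 85 of 244 reads in parental (34.8%, exact 95% interval 28.9 to 41.2), 65 of 250 in Y positive (26.0%, 20.7 to 31.9) and 82 of 265 in Y negative (30.9%, 25.4 to 36.9). A GC deletion at chr1:90133406 (ENSMUST00000061013) had 40 of 153, 61 of 177 and 51 of 161 reads with the indel. The intervals of the 3 libraries overlapped at each of these members.

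Some neighbouring members had equal or nearly equal read shares; whether the same reads carried both was not tested. At chr4:146881775 an AAAA deletion and, 3 bases on, at chr4:146881778, a TT insertion (both in ENSMUST00000063704) had identical counts of reads with the indel, 78 (parental), 77 (Y positive) and 95 (Y negative), at depths of 252 to 258, 215 to 221 and 229 to 235. The GCA insertion at chr1:90143879 and the GGC insertion at chr1:90143885 (ENSMUST00000061013) were carried by 78.1% and 78.9% of reads in parental, 76.1% and 76.8% in the Y positive library and 75.4% and 75.8% in the Y negative library.

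Homozygous members had allele fractions near 1. The median was 1 in every library, and all reads carried the indel at 111 of 140 parental entries, and at 116 of 147 and 112 of 128 entries of the Y positive and Y negative libraries. The lowest values were 0.90, 0.848 and 0.889. The GTTT deletion at chr3:90290713 (ENSMUST00000001042) was present in all 226, 220 and 228 reads, and the ACTT insertion at chr9:123089096 (ENSMUST00000039229) by all 158, 154 and 151 reads. The TTT deletion at chr2:80187477 (ENSMUST00000028392) was carried by all 208, 182 and 193 reads, and the CT deletion at chr8:54601283 (ENSMUST00000033920) by all 103, 128 and 148. The TT insertion at chr2:83635570 (ENSMUST00000028499) had 135 of 136, 127 of 128 and 119 of 119 reads. The AAC deletion at chr9:123347226 (ENSMUST00000038863) was lower, with 189 of 201, 168 of 171 and 176 of 193 reads.

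Sharing among the libraries followed length and direction. Of the 1042 indels, 384 were in all 3 lists (36.9%, exact 95% interval 33.9 to 39.9), 259 in 2 and 399 in 1. All 3 lists held 246 of 825 2-base indels (29.8%, 26.7 to 33.1), 55 of 98 3-base indels (56.1%, 45.7 to 66.1) and 83 of 119 4-base indels (69.7%, 60.7 to 77.8). By Fisher exact tests 2-base indels differed from 3-base indels (adjusted p = 8.54e-07) and from 4-base indels (adjusted p = 3.94e-16), while 3 against 4 bases did not pass (Fisher exact test, adjusted p = 0.0550). Insertions were in all 3 lists at 123 of 155 (79.4%, 72.1 to 85.4) and deletions at 261 of 887 (29.4%, 26.4 to 32.6), the widest difference of the family (Fisher exact test, adjusted p = 1.62e-30). The order held within each length: 61 of 78 insertions against 185 of 747 deletions for 2 bases, 18 of 25 against 37 of 73 for 3, and 44 of 52 against 39 of 67 for 4.

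Indels of 2 to 4 bases were shared less often than the other intronic indels. Of intronic indels of 1 base at that depth, 900 of 1909 were in all 3 lists (47.1%, Fisher exact test against the members, adjusted p = 1.06e-07), and of those of 5 or more bases 167 of 210 (79.5%, Fisher exact test, adjusted p = 1.41e-29). At that depth members of 2 bases lay below both shares, and members of 3 and of 4 bases lay between them. This placement depended on the depth minimum. Over all depths the shares were 12.7%, 15.9% and 16.6% for 2, 3 and 4 bases. All of these lay below the 30.9% for 1 base and the 26.6% for 5 or more bases. A list gives no reads for an indel it leaves out, so an unlisted indel may be absent from the line or merely not called.

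Within a length, the unit marked further differences. AC/GT deletions of 2 bases were in all 3 lists at 93 of 483 (19.3%, exact 95% interval 15.8 to 23.1), and 2-base deletions of other units at 92 of 264 (34.8%, 29.1 to 40.9). For 2-base insertions the corresponding counts were 22 of 29 and 39 of 49. Runs of A or T were in all 3 lists at 60 of 141 for 2 bases, 22 of 44 for 3 and 5 of 10 for 4, shares of 42.6%, 50.0% and 50.0%. The AC/GT class gave 115 of 512 (22.5%) for 2 bases and 6 of 22 (27.3%) for 4. The 4-base indels whose unit needs all 4 bases were in all 3 lists at 66 of 77 (85.7%, 75.9 to 92.7), and 3-base units at 29 of 40 (72.5%). Shares by unit were not tested.

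**Figure D4:**
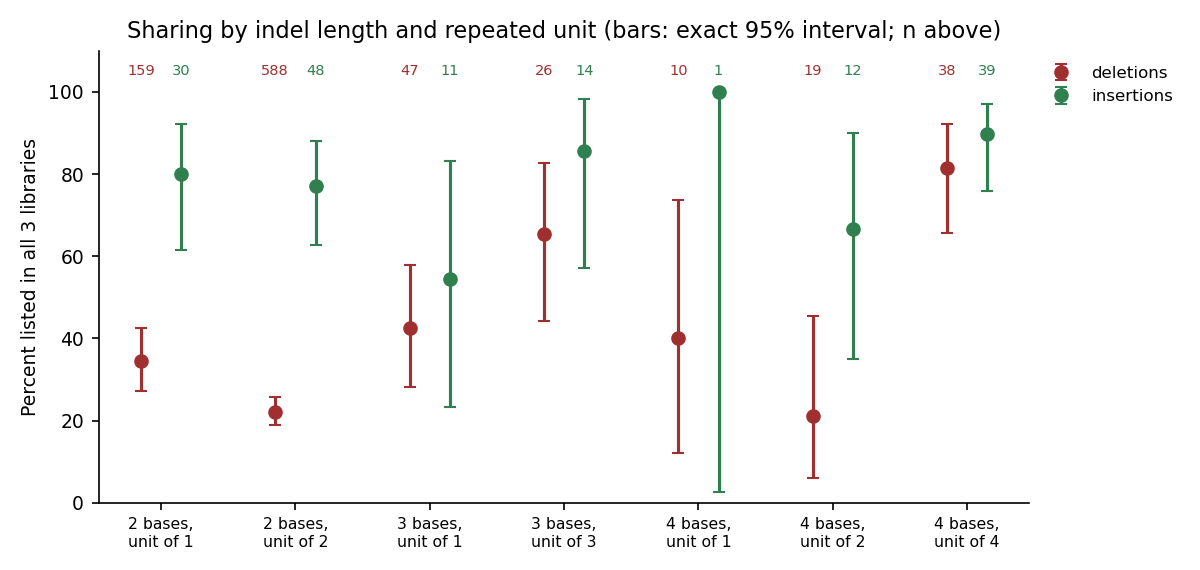
Percent of indels listed in all 3 libraries, by indel length, size of the unit of the inserted or deleted bases, and direction; points are shares, bars exact 95% intervals, and numbers above give n. Among the classes of over 20 indels, 2-base deletions with a unit of 2 have the lowest share (130 of 588) and 4-base insertions with a unit of 4 the highest (35 of 39).

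Depth and allele fraction moved with sharing, and their part in it was not tested. Where the highest depth over the libraries was 20 to 39 reads, 14.7% of 286 AC/GT deletions and 29.1% of 134 other 2-base deletions were in all 3 lists; at 40 reads or more the shares were 25.9% of 197 and 40.8% of 130. AC/GT deletions were thus in all 3 lists less often than the others in both depth ranges. Over all depths the shares were 9.4% of 1248 and 12.1% of 1154, at median highest depths of 14 and 5.5 reads. Over all depths AC/GT deletions were in 1 list alone less often than the others, at 68.5% against 75.8%. At 20 reads or more these shares were 46.6% and 43.2%. Among heterozygous AC/GT deletions with an allele fraction below 0.3, all 3 lists held 28.4% of 141 in parental, 24.1% of 141 in the Y positive library and 24.8% of 129 in the Y negative library. With 0.3 to 0.5 the shares were 37.1% of 89, 34.2% of 111 and 37.1% of 89. For heterozygous 2-base deletions of other units they were 37.9% of 29, 32.3% of 31 and 41.9% of 31 below 0.3, and 52.4% of 21, 35.7% of 28 and 47.8% of 23 from 0.3 to 0.5. At 0.5 or more AC/GT deletions gave 4 of 8, 5 of 12 and 3 of 4, and other units 17 of 30, 13 of 36 and 13 of 20. AC/GT was thus lower in every library below 0.5, by little in Y positive from 0.3 to 0.5, and higher at 0.5 or more in Y positive and Y negative, over 12 and 4 entries. The median allele fraction of AC/GT deletions in 1 list alone was 0.247, 0.261 and 0.238, while those in all 3 lists had 0.290, 0.304 and 0.311, at median depths of 34, 28.5 and 38 against 42, 41 and 41.5 reads.

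Pairs of libraries shared members to a similar extent. The Jaccard index, the indels in both lists over those in either, was 0.535 for Y positive and parental (483 of 903), 0.522 for Y negative and parental (464 of 889) and 0.496 for Y negative and Y positive (464 of 935). It was higher for longer indels in each pair, from 0.472, 0.462 and 0.434 for 2 bases to 0.678, 0.681 and 0.670 for 3 bases and 0.832, 0.759 and 0.763 for 4 bases. Without a depth minimum the index did not rise with length in every pair: it was 0.258, 0.25 and 0.290 for 2, 3 and 4 bases in Y positive and parental, 0.224, 0.232 and 0.225 in Y negative and parental, and 0.233, 0.261 and 0.267 in the derived lines.

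At 20 reads or more in at least 1 library, 38.3% of the members were in 1 list alone. The share was 34.2% for intronic indels of 1 base and 13.8% for those of 5 or more bases. By library, members in 1 list alone at a depth of 20 or more came to 107 of 602 entries for parental, 153 of 660 for Y positive and 139 of 589 for Y negative. Of these, 92, 139 and 116 were 2 bases long, and 64, 90 and 71 were AC/GT deletions. Those with an allele fraction of at least 0.25 numbered 59, 109 and 76. Among the deepest were a GT deletion at chr7:19871941 (ENSMUST00000032559) in parental, carried by 27 of 108 reads (25%, exact 95% interval 17.2 to 34.2), and a TT deletion at chr7:117214832 (ENSMUST00000061729) in parental, by 35 of 78. In Y positive, a TG deletion at chr19:8948514 (ENSMUST00000096255) was found in 20 of 78 reads, an AA deletion at chr4:96415771 (ENSMUST00000107071) by 31 of 61 and a CA deletion at chr14:52637727 (ENSMUST00000067549) by 15 of 60. In Y negative, a CT deletion at chr11:97186990 (ENSMUST00000019026) was carried by 24 of 82 reads and a GT deletion at chr19:46774130 (ENSMUST00000074912) by 26 of 79.

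Part of the private entries came from how places with 2 alternative alleles are written. The start of the shorter of 2 nested deletions is shifted in the files, so that it no longer matches the same deletion listed alone in another library. Of the private Y negative members with an allele fraction of at least 0.25, the deepest was of this kind. This AA deletion at chr2:90290887 (ENSMUST00000026352) was carried by 65 of 86 reads. Parental and Y positive listed an AA deletion for the same place at chr2:90290886. Matching on the caller's own position found 13 of 51 private entries with 2 alternative alleles in another library, 3 of 7 homozygous ones and 0 of 341 heterozygous ones. On that matching, chosen after these entries were seen, 403 of 1029 indels were in all 3 lists (39.2%). Of the private parental members with an allele fraction of at least 0.25, the deepest was an AAA deletion at chr13:100997498 (ENSMUST00000049789). It was carried by 63 of 121 reads beside a second allele and was not found elsewhere by either matching.

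Where a member was listed in both libraries of a pair with 1 alternative allele and at least 20 reads, its allele fraction was compared by a two-sided Fisher exact test of its reads, adjusted over all indels tested in that pair. No member passed an adjusted p of 0.05. Between Y positive and parental this was 0 of 329 members, against 0.874% of 2745 indels of all kinds; between Y negative and parental 0 of 300, against 0.302% of 2651; and for the derived lines, Y negative and Y positive, it was 0 of 300, against 0.794% of 2645. At such background shares few members or none would be called, so the count of 0 does not set them apart. Unadjusted p was under 0.05 at 13, 7 and 12 members (3.95%, 2.33% and 4.0%), against 171, 145 and 164 of all indels tested (6.23%, 5.47% and 6.20%). Such a test compares the reads of 2 libraries, not the lines, and leaves out indels missing from a list. The pairs share libraries and are not independent.

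The allele fraction was equal in both libraries at 95 of 329, 90 of 300 and 88 of 300 of these members. Over all indels tested it was equal at 776 of 2745, 726 of 2651 and 722 of 2645. Between Y positive and parental, most of the equal members lay at 1 in both libraries. The median absolute difference in allele fraction was 0.0287, 0.0252 and 0.0322 over the members, in the order above, and 0.0340, 0.0313 and 0.0333 over all indels tested. In 9 of 10 members it was below 0.139, 0.118 and 0.128, and its highest values were 0.376, 0.297 and 0.357. For 2-base members alone the medians were 0.0391, 0.0384 and 0.0410, and 9 of 10 lay below 0.148, 0.127 and 0.133. Members were higher in the first library of each pair at 122, 108 and 98 sites and lower at 112, 102 and 114. Their median depths were 42 to 46 reads, against 49 to 52 for all indels tested.

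The members with the smallest p in each pair, named after their values were seen, were the following. An AC deletion at chr8:23445990 lay in 40 of 97 Y positive reads and 24 of 112 in parental (0.412 against 0.214, Fisher exact test, adjusted p = 0.199). A CA deletion at chr17:23612206 was carried by 23 of 49 reads in Y negative and 10 of 51 in parental (0.469 against 0.196, Fisher exact test, adjusted p = 0.413). The AAC deletion at chr9:123347226 was carried by 176 of 193 Y negative reads and 168 of 171 Y positive reads (0.912 against 0.982, Fisher exact test, adjusted p = 0.251).

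**Figure D5:**
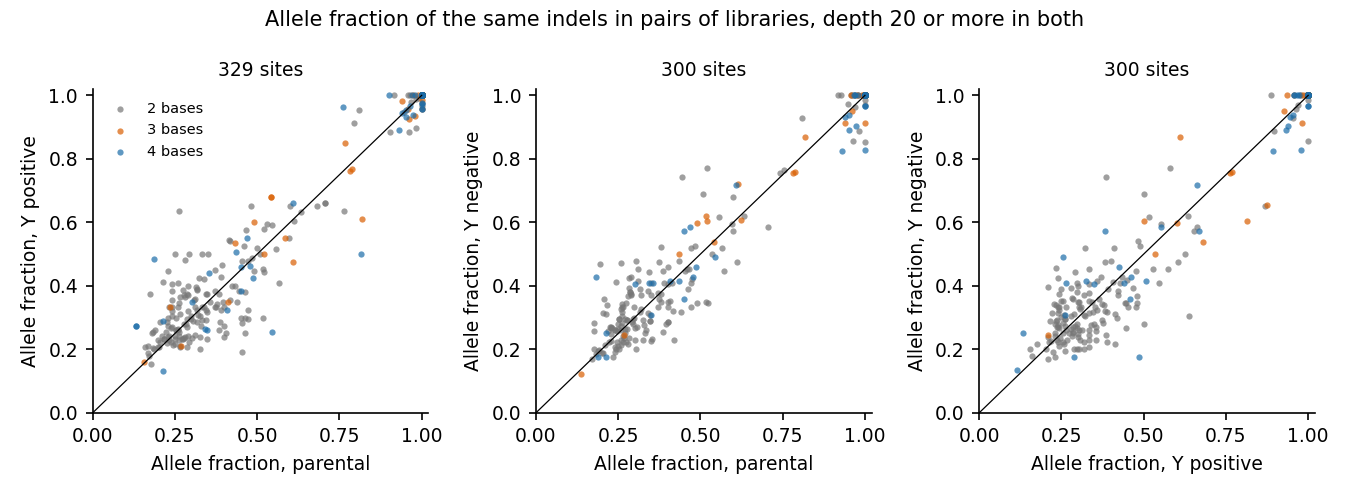
Allele fraction of each member in 2 libraries, at members with 1 alternative allele and at least 20 reads in both, coloured by length; the line marks equal values. Points lie along the line, with a cluster near 1 and a broad group of 2-base members around 0.3.

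Members were spread over all 19 autosomes, with 22 to 85 indels a chromosome at a depth of 20 or more. Homozygosity in every library was less even. Of 131 members homozygous in all 3 lists with at least 20 reads in at least 1, 21 lay on chromosome 3 (of 78 members there), 20 on chromosome 8 (of 65), 17 on chromosome 2 (of 85), 13 on chromosome 18 (of 47), 12 on chromosome 9 (of 63), 12 on chromosome 11 (of 46) and 11 on chromosome 10 (of 40). Chromosomes 7, 15, 16 and 19 had none, 0 of 62, 64, 22 and 58. The other chromosomes had 2 to 5 each. The same counts over all indels of a chromosome are not given here, so this unevenness is not shown to be particular to the members. Genotypes in the remaining libraries could rest on fewer than 20 reads.

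By gene model, members were scattered. The 4203 indels fell in 3012 distinct transcript entries, of which 2319 held 1 member and 59 held 5 or more. The most, 19, lay in ENSMUST00000154148 on chromosome 3, from 84392330 to 85279169, with a median depth of 2 reads; 18 of them were in 1 list alone and 0 reached 20 reads. ENSMUST00000102765 on chromosome 11, from 51139666 to 51386128, held 14, of which 1 reached 20 reads. The entry led by ENSMUST00000028718 on chromosome 2, from 90959622 to 90971176, held 12, with 7 in all 3 lists and a median depth of 15 reads. The files pair these identifiers with no gene symbol.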

How the data were processed

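The deposited files list, per library, the indels that passed the authors' filter, with gene annotation and the caller's fields. The read counts were deposited by the authors as whole numbers: the depth of the entry and the reads of each allele. The authors' quality score per entry was not used. The submitters' processing notes name BWA, Picard, mm9 and mm10; the caller is not given in the sources used here. Positions run past the last GRCm38 (mm10) gene on 9 of 19 autosomes, on chromosome 7 to 152408095 against 145324059, which leaves mm9. Of the transcript identifiers, 0 matched the RefSeq table. Per the labels' protocols, libraries were PCR-amplified before and after capture, and no molecular identifiers are mentioned; intervals and tests cover counting error only. What amplification adds to these indels was not tested.

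Shares carry exact (Clopper-Pearson) 95% intervals. Fisher exact tests, two-sided, compared shares between classes of indels (21 tests, Benjamini-Hochberg) and allele reads per site between libraries (Benjamini-Hochberg over all sites of a pair), at a threshold of 0.05, with SciPy 1.17.1. The site test was tested on simulated data. Depth minimums, matching, genotype source, neighbouring indels and each library were varied. Named indels follow a rule: the deepest shared ones and the deepest private ones with an allele fraction of at least 0.25, none from chromosome 18. Exceptions are the nested deletions and the members of smallest p, chosen after their values were seen. Members and lists were chosen with earlier results of these data known.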

Additional observations from a re-analysis of the deposited data

How the results depend on the processing

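Of 123 alternatives to the tested shares, 118 kept their direction and their side of the 0.05 threshold. Leaving out each library in turn kept the calls on deletion shares. The highest adjusted p was for 3 against 4 bases without parental (Fisher exact test, p = 0.026, adjusted p = 0.0491). The family adjusted over still held the tests of listing in all 3 libraries. Their outcome is fixed once 1 library is left out, so these adjusted p-values are not comparable with the main ones. The homozygous share of 3 minus that of 4 bases in Y positive, which did not pass in the main setting, turned to 0.0912 percentage points with no depth minimum and to 0.833 with members within 10 bases of another indel left out. In parental that difference was -17.7 points and passed the Fisher exact test (adjusted p = 0.0402) where an allele fraction from 0.9 up counted as homozygous. The share in all 3 lists of 2 against 3 bases fell to a difference of -3.22 points with no depth minimum and no longer passed (Fisher exact test, adjusted p = 0.0640). That of 3 against 4 bases was -16.2 points and passed at 30 reads (Fisher exact test, adjusted p = 0.0431). With no depth minimum, the difference in this share shrank from -39.9 to -3.90 points for 2 against 4 bases. It shrank from -13.6 to -0.683 for 3 against 4 and from -49.9 to -15.4 for deletions against insertions. For members it shrank from -42.7 to -12.7 against 5 or more bases and widened from -10.3 to -16.9 against 1 base. An indel in more lists had more chances to reach the minimum, and what this adds was not tested.

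Values without a test moved mostly with depth. The union held 2316 members at 5 reads or more and 1042 at 20. With no depth minimum, AC/GT was 49.9% of 2-base members, units of 1 base 48.5% of 3-base members and units of 4 bases 45.4% of 4-base members. The median allele fraction of heterozygous 2-base members was 0.351, 0.343 and 0.333 in parental, Y positive and Y negative at 10 reads, 0.283 (Y positive) and 0.273 (Y negative) from 30 reads up, and 0.333 in each library over members in all 3 lists. The Jaccard index of Y positive and parental was 0.264, 0.455 and 0.581 with no minimum, 10 and 30 reads; that of Y negative and parental 0.225, 0.446 and 0.559; that of Y negative and Y positive 0.244, 0.440 and 0.543. Entries with 2 alternative alleles were 4.19%, 5.41% and 4.44% with no minimum and 8.44%, 9.54% and 9.58% at 10 reads. The causes were not tested. No member was called in any pair at 10 or 30 reads, on alternative against reference reads, or at an adjusted p of 0.01. No paired analysis was possible because each group has 1 library.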

Other observations

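The lengths of autosomal intronic indels beyond 4 bases also alternated, with more indels of even than of neighbouring odd length. Over all depths there were 145 indels of 5 bases, 248 of 6, 63 of 7, 132 of 8, 53 of 9, 57 of 10, 26 of 11 and 81 of 12, against 2802 of 2, 540 of 3 and 861 of 4 bases. At a depth of 20 or more in at least 1 library the counts from 5 to 12 bases were 20, 24, 23, 25, 17, 11, 5 and 17, where 6, 8 and 12 bases still exceeded the neighbouring odd lengths shown and 10 bases did not exceed 9. Deletions outnumbered insertions at every length from 1 to 12 bases over all depths, by 2951 to 829 for 1 base and by 29 to 28 for 10 bases.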
